A study of Mus musculus with 6 samples.

Results

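The RGK and Rasd small GTPases are encoded in the mouse by 6 genes: the RGK genes Rem1, Rem2, Rrad and Gem, and the Rasd genes Rasd1 and Rasd2. The members were taken by family name from the 43432 genes listed in each table, after gene identifiers were matched to symbols, and all 6 were found. The libraries were made from C57BL/6 wild-type cortical neurons of embryonic stage E16.5, with male and female embryos pooled, after 7 days in culture. From day 6, every culture, those of the 0 h group included, was silenced overnight with 1 µM tetrodotoxin (TTX), a sodium channel blocker, and 100 µM DL-AP5, an NMDA receptor blocker. KCl at 55 mM was then added for 2 h or 6 h, or not at all (0 h), and each time point had 2 biological replicates, 6 libraries in all. The 0 h group was therefore a silenced culture and not a spontaneously active one, and no group was kept silenced alongside the KCl cultures to 2 h or 6 h.

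RGK proteins are atypical members of the Ras superfamily. They bind the beta subunits of voltage-gated calcium channels and lower the calcium current, and they also bind calmodulin and 14-3-3 proteins. In neurons Rem2 is known as an activity-regulated gene that shapes synapses and dendrites, and Gem, also called Kir, is known as a mitogen-induced gene whose product also acts on the actin cytoskeleton. Rasd1, also called Dexras1, was first found as a glucocorticoid-induced Ras protein and couples neuronal nitric oxide synthase to its targets through the adaptor Nos1ap, while Rasd2, also called Rhes, is known above all from the striatum. KCl depolarization opens the calcium channels that RGK proteins restrain.

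The libraries held between 25959298 and 28573067 expected counts each, and 22515 genes had a count in at least 1 library. The neuronal markers of the culture were abundant. Their TPM, a length-corrected unit, summed over 10 markers to 3875 to 3940 at 0 h, 3307 to 3488 at 2 h and 3686 to 3838 at 6 h. The sum was lowest in both 2 h libraries, where Tubb3 had 834 and 989 TPM, against 1639 and 1679 at 0 h. The median log2 fold change of the 10 markers at 2 h was 0.42, against 0.02 over all genes tested. The lower sum at 2 h was therefore not a fall of most markers. At 6 h, 2 of the 10 were called higher (Gad1 1.42, Gad2 1.36) and 1 lower (Tubb3 -1.01) relative to 0 h. Astrocyte markers summed to 508 to 546 TPM at 0 h, 501 to 503 at 2 h and 409 to 420 at 6 h, so these cultures also held glial RNA, and the sum was lower in both 6 h libraries than in all others. Oligodendrocyte lineage markers summed to 118 to 138 TPM at 0 h, 94.1 to 111 at 2 h and 116 to 126 at 6 h, also lowest in both 2 h libraries. Progenitor markers summed to 80.3 to 113 TPM, with both 6 h libraries highest through Nes alone, since the other 4 progenitor markers summed to 49.4 and 50.1 TPM at 0 h and 49.0 and 45.3 at 6 h. Microglial, endothelial and mural markers summed to at most 6.45, 1.62 and 10.1 TPM. The mural sum was higher in both 6 h libraries (6.44 and 10.1) than in all others (at most 5.58). In bulk RNA, a change in the share of a cell type and a change in RNA per cell cannot be told apart. The part of the neuronal, glial, mural and progenitor markers in the results that follow was not tested. The 2 h replicates differed most from each other, with an SD of the log2 difference of 0.43 over genes, against 0.25 at 0 h and 0.21 at 6 h. Across genes with at least 50 mean normalized counts, this difference ran with the GC content of the gene, with a Spearman rho of -0.70 at 2 h against -0.39 at 0 h and -0.29 at 6 h, and its part in the results was not tested beyond the GC correction among the alternatives.

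Among the 6 genes, 5 had counts. Rem2, Gem and Rasd1 were up-regulated at 2 h and at 6 h, by 4.32-, 5.43- and 9.20-fold at 2 h and by 4.05-, 15.9- and 20.3-fold at 6 h in mean normalized counts. Rasd2 was not called at either time, Rrad was at very low counts, and Rem1 was not detected. In the comparison of 2 h with 0 h, 3 of the 6 members were therefore called higher and 0 lower, where 3.62% of all genes tested were called higher and 5.94% lower. A gene was called by the thresholds of the study, an adjusted p of at most 0.05 in DESeq2 and an absolute log2 fold change above 1. In the comparison of 6 h with 0 h the same 3 members were called higher and 0 lower, where 9.1% of all genes were called higher and 10.2% lower. In the comparison of 6 h with 2 h, 1 member, Gem, was called higher and 0 lower, where 10.1% of all genes were called higher and 8.02% lower. The comparisons share the 0 h or the 2 h libraries and are not independent of each other.

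**Figure D1:**
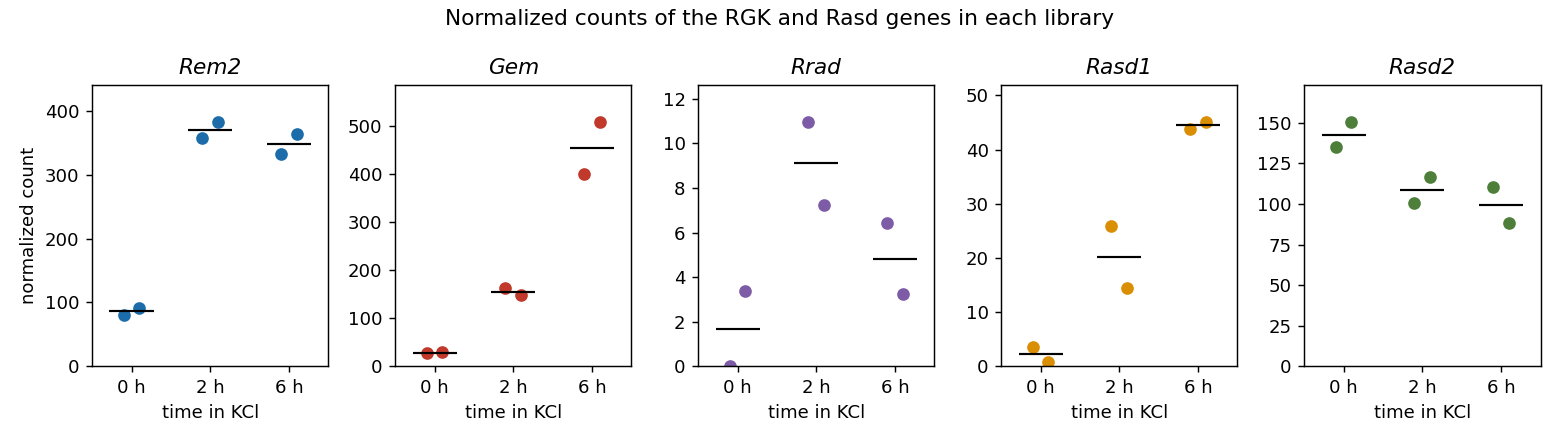
Normalized counts (vertical axes, each from 0 and with its own scale) of the 5 detected genes in each library by time in KCl; points are the 2 replicates and bars are their mean. Rem2 stood near its 6 h level already at 2 h, Gem and Rasd1 had their highest values at 6 h, and Rasd2 had its highest values at 0 h.

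Rem2 (ENSMUSG00000022176) is a protein-coding gene on chromosome 14 at 54476100 to 54480431 of GRCm38, on the plus strand, with 4 annotated transcripts of up to 5 exons. The 0 h libraries held 91 and 108 expected counts of Rem2, the 2 h libraries 359 and 371, and the 6 h libraries 311 and 338. Both KCl groups lay above both 0 h libraries, and the 2 KCl groups overlapped each other after normalization. Mean normalized counts were 85.9 ± 7.24 at 0 h, 371 ± 17.7 at 2 h and 348 ± 21.8 at 6 h (SD, n = 2 libraries). The log2 fold change was 2.11 (SE 0.21, DESeq2 adjusted p = 8.77e-23) at 2 h and 2.02 (SE 0.21, adjusted p = 3.83e-21) at 6 h. Between 2 h and 6 h it was -0.09 (SE 0.19, adjusted p = 0.73), with a 95% interval from -0.46 to 0.27, so a further change of 2-fold in either direction lay outside the interval. The deposited gene length of Rem2, a mean over its transcripts, ran from 1667 to 1884 bases and varied as much within groups as between them.

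The Rem2 start region is shown because Rem2 rose within 2 h, and the start region of Rasd2 is shown beside it because Rasd2 was expressed at a like level at 0 h and was not called at either time. The windows hold 250 bases before and 50 bases after the annotated start, from RefSeq on GRCm38.p6, plus strand, at chr14:54475850-54476149 for Rem2 and chr8:75213694-75213993 for Rasd2. Capitals mark a GC box, here in its reverse form.
Rem2: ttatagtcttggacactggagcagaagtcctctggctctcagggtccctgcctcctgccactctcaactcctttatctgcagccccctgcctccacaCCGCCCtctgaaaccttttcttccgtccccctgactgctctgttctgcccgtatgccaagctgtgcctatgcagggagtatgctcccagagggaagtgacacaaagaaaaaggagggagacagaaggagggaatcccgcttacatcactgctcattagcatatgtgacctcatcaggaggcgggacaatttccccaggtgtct
Rasd2: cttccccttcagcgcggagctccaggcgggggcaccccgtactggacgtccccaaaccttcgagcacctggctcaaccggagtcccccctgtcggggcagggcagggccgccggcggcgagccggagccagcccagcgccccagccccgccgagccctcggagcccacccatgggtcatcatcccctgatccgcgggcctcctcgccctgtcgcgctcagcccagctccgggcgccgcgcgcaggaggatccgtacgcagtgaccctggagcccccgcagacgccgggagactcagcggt
Of 6 motifs searched on both strands, the GC box GGGCGG was found 1 time in the Rem2 window, 153 bases before the start, and 0 times in the Rasd2 window, against 35.7% of all 32851 windows of this length that hold at least 1. The full cAMP response element TGACGTCA (in 1.79% of all windows), its shorter form TGACG (20.8%), the AP-1 site TGANTCA (7.81%), the CArG box of serum response factor (1.63%) and the TATA box TATAAA (13.6%) were in neither window. The shorter form TGACG is contained in the full element. The window of Rem1, which had no reads here, held 5 GC boxes and 1 TGACG. G and C made up 54.7% of the Rem2 window, 74.7% of the Rasd2 window and 68.0% of the Rem1 window, against a median of 52.7% over all windows. The windows of Gem, Rrad and Rasd1 were not analysed here.

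Gem (ENSMUSG00000028214) lies on chromosome 4 at 11704457 to 11714752, on the plus strand. Expected counts of Gem in the 2 replicates were 32 and 34 before KCl, 162 and 143 after 2 h, and 373 and 473 after 6 h. No library of a later time overlapped a library of an earlier one. Mean normalized counts were 28.5 ± 0.17 at 0 h, 155 ± 9.86 at 2 h and 454 ± 77.5 at 6 h (SD, n = 2). Relative to 0 h, Gem rose by a log2 fold change of 2.44 (SE 0.29, DESeq2 adjusted p = 2.17e-15) at 2 h and 3.99 (SE 0.28, adjusted p = 4.32e-43) at 6 h. It was the member that also rose between 2 h and 6 h, by 2.93-fold (log2 1.55, SE 0.24, adjusted p = 4.64e-10). That last call was not kept when the test was run against a log2 fold change of 1 (adjusted p = 0.36), with a 95% interval of the estimate from 1.09 to 2.01.

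The annotation gives Gem 2 protein-coding transcripts. One has 5 exons and 2006 bases and starts at the gene's first base, and the other has 4 exons and 1994 bases and starts at 11705807, inside the gene. The deposited gene length of Gem, which RSEM weights by the estimated share of each transcript, was 1994 bases in both 0 h libraries and 2006 bases in both 2 h and both 6 h libraries. The estimate thus placed the reads on the 4-exon transcript at 0 h and on the 5-exon transcript at both later times. It rested on 32 and 34 counts at 0 h, and on a difference in the first exons alone, and the change was given no error and was not tested.

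Rrad (ENSMUSG00000031880, chromosome 8 at 104628070 to 104631327, minus strand), best known from muscle and heart, was close to the limit of detection. It had 0 and 4 expected counts in the 0 h replicates, 11 and 7 in those of 2 h, and 6 and 3 in those of 6 h. The 2 h libraries lay above all others, and the 6 h libraries overlapped those of 0 h after normalization. Pooled over replicates, 18 counts at 2 h stood against 4 at 0 h, a ratio of depth-scaled counts with an exact 95% counting interval from 1.74 to 21.5, which covers counting error only. In the fit over all genes Rrad was not called at 2 h (log2 fold change 2.42, SE 1.42, adjusted p = 0.22) or at 6 h (1.5, SE 1.46, adjusted p = 0.43). Both values hang on the 0 h libraries, with 1.44 at 2 h and 0.52 at 6 h without replicate 1, and 5.81 and 4.89 without replicate 2, when the 0 h level is 0 and the fitted value is no bound. Rrad overlaps the gene Gm33023 on the opposite strand, and whether the counting used strand is not given in the sources used here.

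Rem1 (ENSMUSG00000000359, chromosome 2 at 152626951 to 152635198, plus strand) had 0 counts in each of the 6 libraries. At this depth, 3 counts of Rem1, the limit taken for a count of 0, would correspond to 0.21 to 0.24 TPM, for counting error only. No fold change was computed for it.

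Compared per transcript length, in TPM, the RGK genes together rose from 4.78 and 6.18 at 0 h to 21.4 and 22.7 at 2 h and to 29.4 and 33.9 at 6 h. Rem2 made up 75.3% and 77.4% of this sum at 0 h, 69.9% and 74.2% after 2 h, and 49.3% and 43.8% after 6 h. Gem made up 24.7% and 19.6% in the 0 h libraries, 27.6% and 24.2% in those of 2 h, and 49.6% and 55.8% in those of 6 h. The share of Gem was thus higher in both 6 h libraries than in the other 4, and the shares at 0 h and 2 h overlapped. In TPM, the ratio of Gem to Rem2 was 0.33 and 0.25 in the 0 h libraries, 0.40 and 0.33 in those of 2 h, and 1.01 and 1.27 in those of 6 h.

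**Figure D2:**
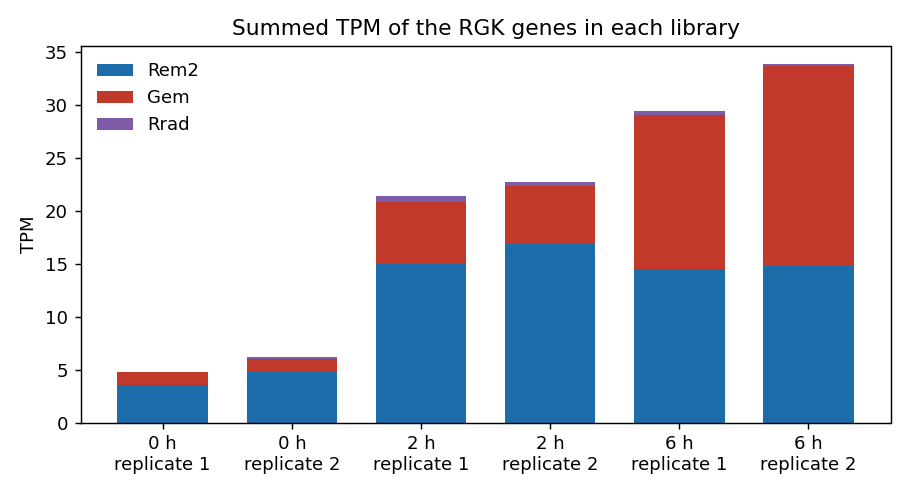
Stacked TPM (vertical axis) of Rem2, Gem and Rrad in each of the 6 libraries (horizontal axis), with Rem1 at 0 throughout. The total was 4.78 and 6.18 at 0 h and 29.4 and 33.9 at 6 h, and the Rem2 part was of like height at 2 h and 6 h while the Gem part was larger at 6 h.

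Rasd1 (ENSMUSG00000049892) is a gene of 2 exons and 1 annotated transcript on chromosome 11 at 59963181 to 59964944, on the minus strand. The 0 h replicates had 4 and 1 expected counts, those of 2 h had 26 and 14, and those of 6 h had 41 and 42. The 3 groups did not overlap, and the 6 h libraries were nearly equal, while the 2 h libraries differed by almost as much as their lower value. Mean normalized counts were 2.2 ± 1.9 at 0 h, 20.2 ± 8.13 at 2 h and 44.5 ± 0.92 at 6 h (SD, n = 2). Rasd1 rose by a log2 fold change of 3.22 (SE 0.89, DESeq2 adjusted p = 0.0018) at 2 h and 4.36 (SE 0.87, adjusted p = 3.10e-06) at 6 h. The size of these changes is uncertain, since only 5 counts were found at 0 h over both replicates. Exact 95% counting intervals of the ratio ran from 3.71 to 30.5 for 2 h over 0 h and from 8.48 to 65.1 for 6 h over 0 h. Without replicate 2 of 0 h, the one with 1 count, the 2 h log2 fold change was 2.52 and was no longer called (adjusted p = 0.11), and without replicate 1 it was 4.59. The 6 h change stayed called when any single library was left out, with values from 3.65 without replicate 2 of 0 h to 5.73 without replicate 1 of 0 h. Between 2 h and 6 h the log2 fold change was 1.14 (SE 0.63, adjusted p = 0.13), with an interval from -0.10 to 2.37, which leaves both no change and a 4-fold rise inside.

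Rasd2 (ENSMUSG00000034472) lies on chromosome 8 at 75213944 to 75224113, on the plus strand. Its expected counts in replicates 1 and 2 were 152 and 179 before KCl, 101 and 113 after 2 h, and 103 and 82 after 6 h. Both 0 h libraries lay above all KCl libraries, and the 2 h and 6 h libraries overlapped after normalization. Mean normalized counts were 143 ± 11.3 at 0 h, 109 ± 11.3 at 2 h and 99.2 ± 15.6 at 6 h (SD, n = 2). The log2 fold change was -0.39 (SE 0.27, DESeq2 adjusted p = 0.33) at 2 h, with an interval from -0.93 to 0.14. At 6 h it was -0.53 (SE 0.28, adjusted p = 0.11), with an interval from -1.07 to 0.01. A rise of the size of that of Rasd1 lay outside both intervals. A p past the threshold was obtained at 6 h in edgeR (adjusted p = 0.045) and with library totals as scaling (log2 fold change -0.77, adjusted p = 0.018), still below 2-fold. Other alternatives moved the other way, with -0.37 under a GC correction (DESeq2 adjusted p = 0.25) and -0.52 with a replicate block (adjusted p = 0.19). The deposited length of Rasd2 was 2810 bases, that of its longer transcript, in every library.

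**Figure D3:**
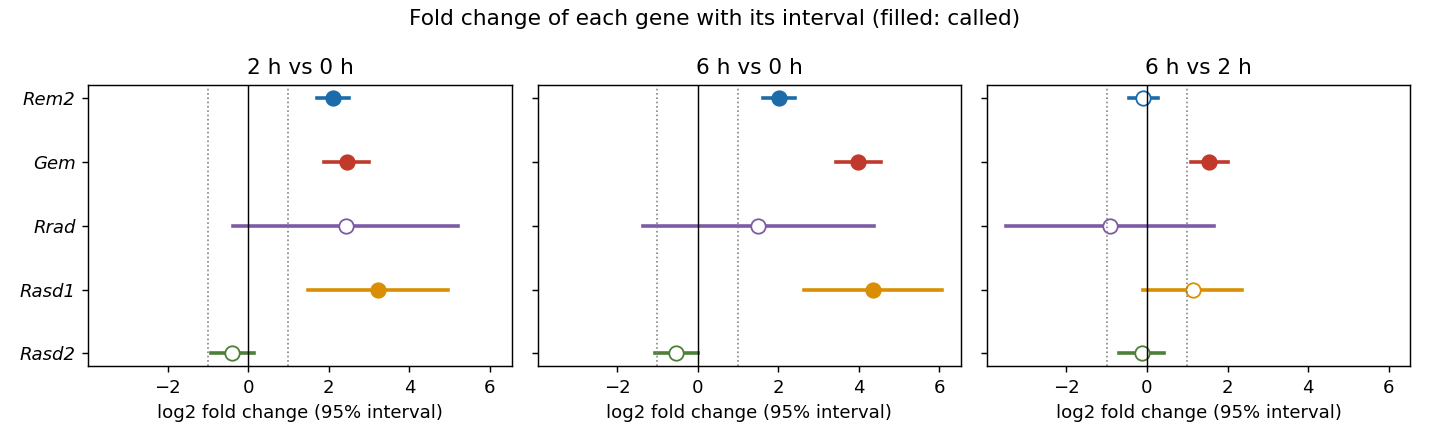
Log2 fold change (horizontal axes) of each detected gene in the 3 comparisons, with its 95% interval from DESeq2; filled points were called, and dotted lines mark a log2 fold change of 1 in either direction. The intervals of Rem2 and Gem were narrow, and those of Rrad and Rasd1, the genes of lowest count, were wide.

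The order of the members by TPM changed over time. At 0 h, Rem2 (3.60 and 4.78) and Rasd2 (3.79 and 4.29) overlapped at the top, followed by Gem (1.18 and 1.21), and then by Rasd1 (0.19 and 0.05) and Rrad (0 and 0.19), which overlapped. At 2 h the order was Rem2 (15.0 and 16.9), Gem (5.92 and 5.49), Rasd2 (2.5 and 2.94), Rasd1 (1.24 and 0.70) and Rrad (0.54 and 0.36), with no overlap between neighbours. At 6 h, Gem (14.6 and 18.9) and Rem2 (14.5 and 14.8) overlapped at the top, and Rasd2 (2.73 and 2.22) stood just above Rasd1 (2.10 and 2.19). The TPM ratio of Rasd1 to Rasd2 was 0.050 and 0.012 before KCl, 0.50 and 0.24 after 2 h, and 0.77 and 0.99 after 6 h. The summed TPM of these 2 genes was 3.98 and 4.34 before KCl, 3.74 and 3.64 after 2 h, and 4.83 and 4.41 after 6 h, lowest in both 2 h libraries and highest in both 6 h libraries. This sum was not tested.

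The time courses were set beside those of 6 known activity-regulated genes by expressing each group mean as a percentage of the gene's highest group mean. Rem2 was at 23.2% at 0 h, 100% at 2 h and 93.8% at 6 h. Gem was at 6.29%, 34.1% and 100%, and Rasd1 at 4.93%, 45.4% and 100%. The immediate-early transcription factors Fos, Npas4 and Nr4a1 had their highest mean at 2 h and were at 50.9%, 44.3% and 38.8% at 6 h, so none held its 2 h level as Rem2 did. The effector genes Arc, Bdnf and Nptx2 had their highest mean at 6 h, with 71.3%, 56.7% and 19.3% of it at 2 h, and Gem and Rasd1 lay inside that range.

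**Figure D4:**
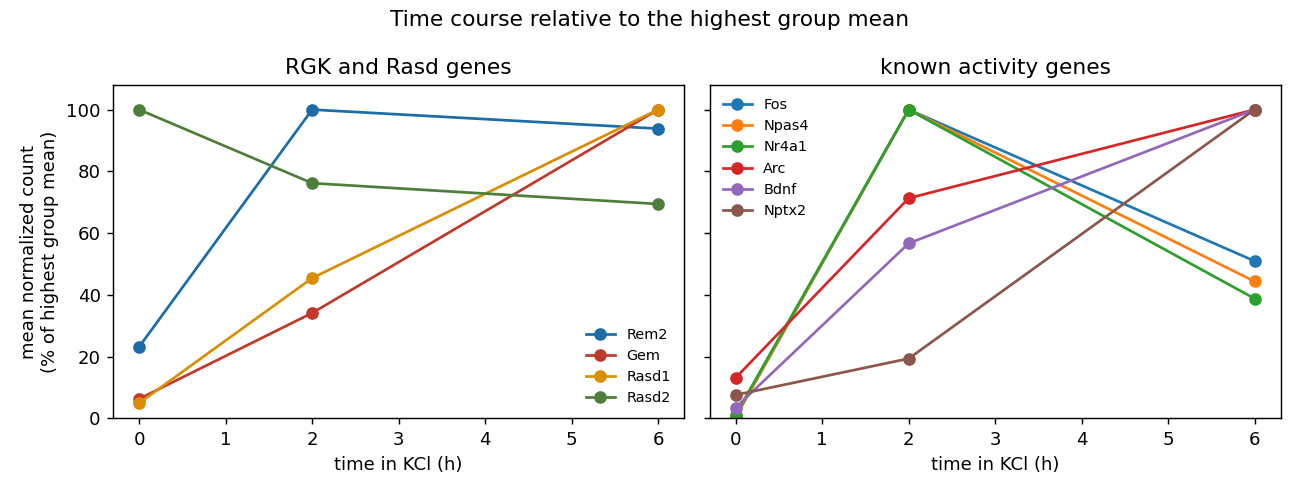
Mean normalized count as a percentage of the highest group mean (vertical axis) against time in KCl (horizontal axis), for 4 members on the left and 6 known activity genes on the right. Rem2 reached 100% at 2 h and was at 93.8% at 6 h, while Gem and Rasd1 climbed through 34.1% and 45.4% to 100% at 6 h.

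By Euclidean distance between log2 profiles over the 6 libraries, among the 12289 genes averaging 50 normalized counts or more, the genes most like Rem2 were Atf4, Cfap43 and Cpne1 (distances 0.28, 0.31 and 0.31). Atf4, a transcription factor of the integrated stress response, had log2 fold changes of 2.03 at 2 h and 1.84 at 6 h. Gem had no neighbour as close, and the nearest were Fndc9, Mir22hg and Casc1 (0.88, 0.93 and 1.05). The genes most like Rasd2 were Psmc3ip, Mybl2 and Cdca3 (0.10, 0.11 and 0.15), of which Mybl2 and Cdca3 are known from dividing cells, and the log2 fold changes of the 3 lay between -0.50 and -0.07 in the 3 comparisons. Cpne1 and Psmc3ip had non-whole counts in all 6 libraries and so share reads with other genes. No member had a non-whole count in any library.

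Of 29 other genes of the Ras subfamily, 27 were tested, and 0 were called higher and 3 lower at 2 h, with a median log2 fold change of -0.06 against 0.02 over all genes tested, of which 3.62% were called higher and 5.94% lower. Those lower at 2 h were Rhebl1 (-1.70), Rasl11b (-1.16) and Rap2b (-1.01), the last of which lost its call with a GC correction. Another 5 of the 27 passed the p threshold at 2 h below 2-fold, as did 10 at 6 h relative to 0 h. At 2 h these were Rap1b (0.91), Rap2a (0.75) and Rheb (0.63), which were higher, and Diras2 (-0.75) and Rras2 (-0.46), which were lower. At 6 h, 2 were called higher and 1 lower, against 9.1% and 10.2% of all genes. The number lower was 2 with TMM factors or edgeR, adding Nkiras2, and 3 with library totals, adding Nkiras2 and Rhebl1. Rerg, an estrogen-regulated growth inhibitor, rose by 1.39, Rheb, the activator of mTOR complex 1, rose by 1.26, and Diras1 changed by -1.46. Rheb was not called on the TPM scale with limma. Between 2 h and 6 h, 2 were called higher (Rerg 2.00, Rap2b 1.18) and 1 lower (Diras1 -1.25), against 10.1% and 8.02% of all genes. Nkiras2 was also lower, making 2, with TMM factors, library totals or edgeR, and Rhebl1 also higher, making 3, with a GC correction.

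The calcium channel genes were read because RGK proteins act on high-voltage-activated channels, and the low-voltage T-type pores, which are not known to need beta subunits, were read beside them. Of 17 tested, 0 were called in either direction at 2 h, against 3.62% of all genes called higher and 5.94% lower, with a median log2 fold change of 0.17. At 6 h, 0 were called higher and 3 lower relative to 0 h, against 9.1% and 10.2% of all genes, with a median of -0.25 against 0.00 over all genes. Cacna1d, the pore of an L-type channel, had 1469 ± 87.0 mean normalized counts at 0 h, 2184 ± 64.3 at 2 h and 421 ± 2.26 at 6 h (SD, n = 2), a log2 fold change of -1.80 from 0 h to 6 h (SE 0.13, DESeq2 adjusted p = 2.07e-43). Cacna1i, the pore of a T-type channel, changed by -1.42 (SE 0.13, adjusted p = 5.13e-26). The third, Cacna2d4, was near the detection limit, with 13.7 ± 5.61 normalized counts at 0 h and 2.14 ± 1.51 at 6 h, and was not called with a GC correction. The main neuronal pores Cacna1a, Cacna1b, Cacna1c and Cacna1e had log2 fold changes between -0.53 and 0.02 at 6 h and were not called. Below 2-fold, Cacna1b (-0.53, DESeq2 adjusted p = 2.14e-06), Cacna1c (-0.44, adjusted p = 7.54e-04) and Cacna1e (-0.31, adjusted p = 0.023) were lower past the p threshold. Cacna1a was not (0.02, adjusted p = 0.90). From 2 h to 6 h, 1 of the 17 channel genes was called higher and 2 lower, against 10.1% and 8.02% of all genes, with a median of -0.51. Those lower were Cacna1d (-2.38, SE 0.13, DESeq2 adjusted p = 3.48e-75), called in all 16 alternatives, and Cacna1i (-1.20), not called with a GC correction or in the test against a log2 fold change of 1.

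Of the 4 beta subunit genes, whose products RGK proteins bind, none was called relative to 0 h at either time, and the 1 channel gene called higher at 6 h than at 2 h was Cacnb2 (1.04, adjusted p = 3.35e-06). That call was close to the fold threshold and was held in 11 of 16 alternatives, with values from 0.86 to 1.28. It was lost, among others, without replicate 2 of 2 h and without replicate 1 of 6 h. From 0 h to 6 h, Cacnb2 (0.75, DESeq2 adjusted p = 8.58e-04) and Cacnb1 (0.40, adjusted p = 0.022) were higher past the p threshold, below 2-fold. Cacnb3 (-0.14, adjusted p = 0.45) and Cacnb4 (0.81, adjusted p = 0.16) did not pass it.

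**Figure D5:**
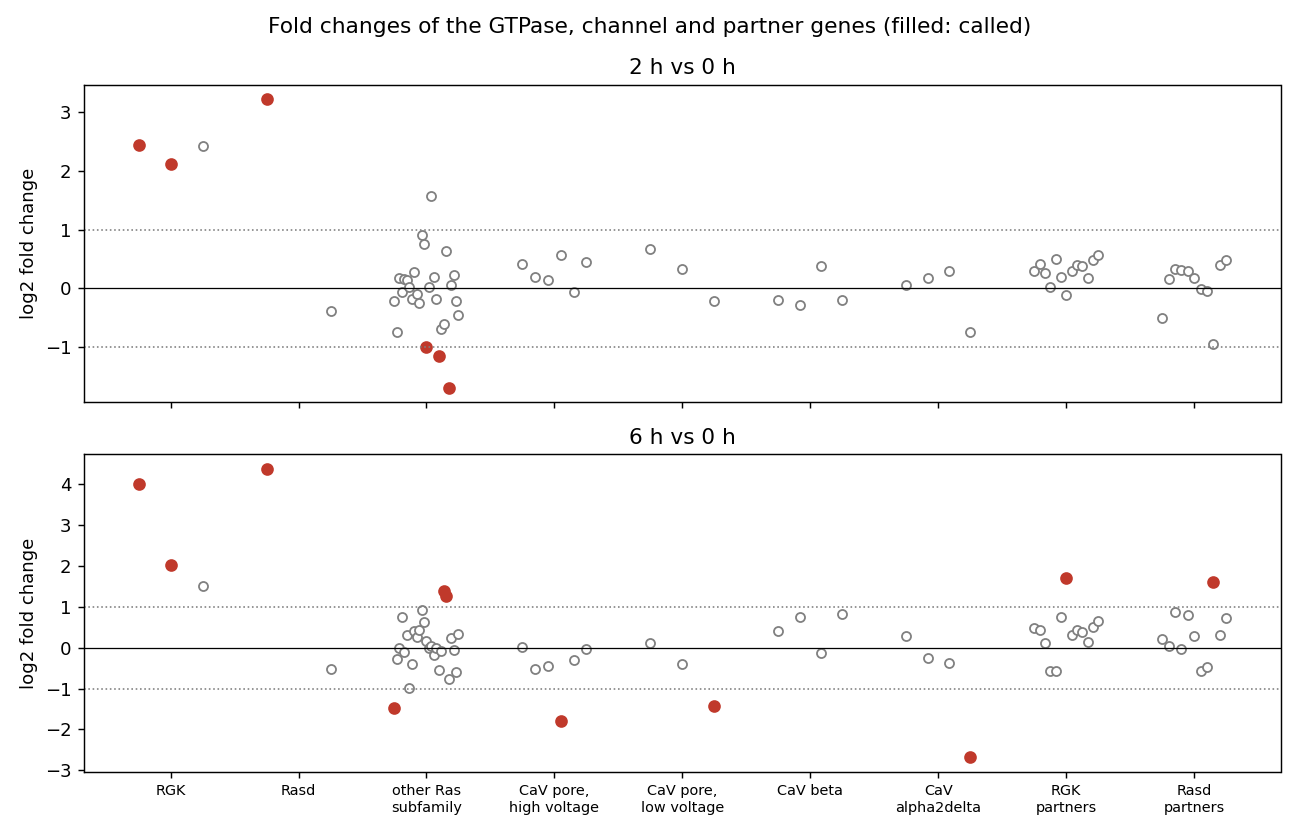
Log2 fold change (vertical axes) at 2 h and at 6 h relative to 0 h for each tested gene of the RGK and Rasd families, the other Ras subfamily, the calcium channel subunits and known partners (horizontal axis); filled points were called and dotted lines mark a log2 fold change of 1. At 2 h the calls among the channel and partner genes were 0, and at 6 h the called channel genes were all lower.

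Of 13 known RGK partners, 0 were called at 2 h, against 3.62% of all genes called higher and 5.94% lower. At 6 h, 1 was called, a share no higher than the 9.1% of all genes called higher then. This was Rock2, a kinase of the actin cytoskeleton, which rose by 1.70 (SE 0.27, DESeq2 adjusted p = 2.57e-09). That call was not kept in the test against a log2 fold change of 1 (adjusted p = 0.14). From 2 h to 6 h, Rock2 rose by 1.82 and Kif9, a kinesin known to bind Gem, changed by -1.08, a call lost without replicate 2 of 2 h, so 1 of 13 was called in each direction, against 10.1% higher and 8.02% lower of all genes. The 3 calmodulin genes and the 6 listed 14-3-3 genes were not called in any comparison. Below 2-fold, 7 of the 13 partners at 2 h and 8 at 6 h passed the p threshold relative to 0 h. The median log2 fold changes of the list were 0.29 and 0.42, against 0.02 and 0.00 over all genes tested. Of 11 known Rasd partners, 0 were called at 2 h and 1 at 6 h, again near the share of all genes. This was Nos1ap, the adaptor of Rasd1, with 348 ± 2.49 mean normalized counts at 0 h, 181 ± 26.7 at 2 h and 1061 ± 69.1 at 6 h (SD, n = 2). Its log2 fold change was -0.95 (adjusted p = 1.92e-06) at 2 h, just under the fold threshold and called lower with library totals as scaling, and 1.61 (adjusted p = 8.55e-21) at 6 h. From 2 h to 6 h, 1 of the 11 Rasd partners was called higher and 0 lower, against 10.1% and 8.02% of all genes. That was again Nos1ap, at 2.555 (DESeq2 adjusted p = 1.69e-45), called in all 16 alternatives.

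Because Rasd1 is known as a glucocorticoid-induced gene, 8 other known glucocorticoid-induced genes were read beside it. At 2 h, 3 were called higher and 0 lower, against 3.62% and 5.94% of all genes, and at 6 h, 3 were called higher and 1 lower, against 9.1% and 10.2%. Per1, a clock gene, rose by 2.03 at 2 h and 2.41 at 6 h, Errfi1, a feedback inhibitor of EGF receptors, by 1.58 and 2.32, and Klf9 by 1.38 at 2 h. Sgk1 was at 1.01 at 6 h and was not called with TMM factors, library totals, a GC correction or edgeR. Fkbp5, a widely used readout of the glucocorticoid receptor, changed by -1.39 at 6 h (SE 0.14, DESeq2 adjusted p = 5.85e-23), so the list did not move in 1 direction.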

How the data were processed

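RNA-seq was analysed in 6 libraries, 2 for each of 0 h, 2 h and 6 h of KCl, with groups and replicate numbers read from the sample titles. Per the labels and the study's methods, poly(A) RNA was selected in 2 rounds, sequenced in paired-end mode and mapped to mm10, and the submitters' processing notes name RSEM 1.3.0 and Bowtie2 2.2.9. The expected counts deposited by the authors are RSEM estimates per gene and are not normalized. The TPM deposited by the authors are corrected for transcript length and scaled to a fixed total per library, so they sum alike at any depth. The gene lengths deposited by the authors are RSEM means over transcripts. The FPKM column was not used here.

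Of 43432 identifiers, 42462 matched a symbol and position in GENCODE M21 (GRCm38), which may differ from the release used by the authors. Expected counts were rounded and tested with DESeq2 1.42.0 in R 4.3.3 in 1 fit of all 6 libraries with group as the only term, unshrunken Wald tests and Benjamini-Hochberg adjustment over all genes kept by independent filtering. The test was checked on simulated counts. Alternatives used edgeR 4.0.16, limma 3.58.1 on log2(TPM + 1) and log2(TPM + 0.1), other scalings and filters, a GC correction and leaving out each library. P-values rest on the spread between replicates as DESeq2 models it over all genes and groups, and not on the libraries of 1 gene alone. They depend on that model, since the adjusted p of Rem2 at 2 h was 8.77e-23 in DESeq2 and 1.28e-04 in edgeR. The series calls the replicates biological duplicates without naming cultures or litters.

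The 6 members are always named. From each other list, up to 4 called genes are named, those of largest change that average 50 normalized counts or more, and all activity genes. Rap2b, Rasl11b, Nkiras2, Gad1, Gad2, Tubb3, Nes, Cacna2d4, Sgk1 and the uncalled Ras subfamily, channel and partner genes were named after their values were seen. The members and lists were chosen with earlier results of these data known.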

Additional observations from a re-analysis of the deposited data

How the results depend on the processing

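The 16 alternatives gave 237 values for the 15 fold changes of the 5 detected members, and 233 kept their status as called or not called, with no called value changing direction. Some uncalled values passed 1 of the 2 thresholds and not both, such as Rasd2 at 6 h in edgeR (adjusted p = 0.045) and Rasd1 from 2 h to 6 h with limma (lowest adjusted p = 0.037). The number of members called was 2 to 3 at 2 h and 3 at 6 h relative to 0 h, and with a replicate block it was 3, 3 and 1 in the 3 comparisons. Replicate numbers were not taken as pairs, since deviations of same-numbered libraries correlated by 0.28, -0.00 and 0.15, and the block changed no call of a member. Among the listed genes, Cacna2d4 was not called at 6 h with the block, and Cacnb4 was called higher at 6 h than at 2 h. For 6 h against 2 h the number was 1, and 0 when tested against a log2 fold change of 1, where Gem (1.55) had an adjusted p of 0.36. Rasd1 at 2 h lost its call in that test (adjusted p = 0.36), with limma on log2(TPM + 1) (0.80, adjusted p = 0.038) and without replicate 2 of 0 h (2.52, adjusted p = 0.11), and over all alternatives ran from 0.80 to 4.59. The uncalled Rem2 and Rasd2 values for 6 h against 2 h ran from -0.17 to 0.07 and from -0.31 to 0.02. From expected counts without length, Rem2 was 74.0% of the RGK sum at 0 h (76.3% in TPM) and Gem 28.9% at 2 h (25.9% in TPM).

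Library totals as scaling moved the median of all genes to -0.15, -0.25 and -0.08 in the 3 comparisons, and gave 499, 1032 and 1418 genes higher and 1332, 2564 and 1515 lower, against 609, 1572 and 1654 higher and 1000, 1761 and 1316 lower by median-of-ratios. Tested against a log2 fold change of 1, 178, 446 and 342 were higher and 225, 414 and 198 lower, and with limma on log2(TPM + 1), 258, 780 and 1119 higher and 860, 1555 and 751 lower. The test against a log2 fold change of 1 also removed the calls of Rhebl1, Rasl11b, Rap2b and Klf9 at 2 h, of Rerg, Rheb, Rock2, Cacna2d4, Fkbp5 and Sgk1 at 6 h, and of Diras1, Rap2b, Cacna1i, Cacnb2, Rock2 and Kif9 from 2 h to 6 h. Depth limits Rem1, Rrad and the 0 h level of Rasd1, which rest on 0 to 5 counts at 0 h over both replicates.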

Other observations

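The genes within 100 kb of each member were read for calls. At 2 h relative to 0 h, 0 were called near any of the 6 members, where 3.62% of all genes tested were called higher and 5.94% lower. The genes tested were 3 near Rem1, 7 near Rem2, 4 near Rrad, 2 near Gem, 4 near Rasd1 and 1 near Rasd2, so few calls could be met. At 6 h relative to 0 h, 3 of the 7 near Rem2 were called, Ajuba at a log2 fold change of 1.93, Mrpl52 at -1.60 and Haus4 at -1.33, and 2 of the 4 near Rasd1, Med9 at -1.95 and Nt5m at -1.14. Over all genes tested, 9.1% were called higher and 10.2% lower in that comparison. At 6 h relative to 2 h, 2 near Rem2 were called, Ajuba at 1.22 and Haus4 at -1.22, and 2 near Rasd1, Nt5m at -1.27 and Med9 at -1.17, where 10.1% of all genes were higher and 8.02% lower. None of the 2 tested near Gem, the 3 near Rem1, the 4 near Rrad and the 1 near Rasd2 was called in any comparison.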
